A study of Mus musculus with 8 samples.

Results

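Etv4 and Etv5 encode ETS transcription factors, and the H3K27ac peaks around both genes were followed over 8 libraries of the mouse pancreatic acinar line 266-6. Peaks were taken from chr11:101610000-101670000 for Etv4 and chr16:22360000-22480000 for Etv5, in build mm9. Overlapping peaks (1 bp or more) were merged across the lists, which gave 2 regions in the Etv4 window and 5 in the Etv5 window, of 33920 regions in the series. They hold 33 of the 195577 deposited peaks. The genes were chosen by measured values: the region at the 5′ end of Etv4 had been found to carry a peak in every EGF-treated library and in no vehicle library. Differences between EGF and vehicle at these windows are therefore described without a test, and for that region the knockdown contrasts as well.

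The 8 libraries form 4 groups of 2. Control cells received a non-targeting siRNA and then vehicle (0.1% BSA), and EGF cells the same siRNA and then EGF at 40 ng/ml. Knockdown cells received an Arid1a siRNA followed by vehicle, and the fourth group that siRNA followed by EGF. Arid1a belongs to SWI/SNF, a complex that remodels nucleosomes. All groups had siRNA at 25 nM for 48 h, overnight serum starvation and 8 h of EGF or vehicle, so the baseline is a starved, transfected cell. Knockdown here names the siRNA given: the level of Arid1a, the match of the siRNAs to the mouse gene and the acinar markers were not analysed here. Whether duplicates were separate cultures is not labelled, so the spread behind each p-value may be technical only.

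Etv4 (Pea3) and Etv5 (Erm) form, with Etv1, the PEA3 subfamily of ETS factors, which bind DNA at a GGAA core through a conserved ETS domain. They are known as transcriptional targets and effectors of receptor tyrosine kinase signalling through ERK, the pathway that EGF activates. The repressor Capicua (Cic) holds both genes down in unstimulated cells and is inactivated by ERK signalling, and its known sites are octamers such as TGAATGAA and TGAATGGA. H3K27ac marks active promoters and enhancers.

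Each list is a set of peaks with a position, a fold enrichment over the caller's background, and −log10 p and q-values. Lists of EGF-treated libraries held 22030 to 23256 peaks and those of vehicle libraries 22167 to 28281. The first control library, at 22167, was the shortest of the vehicle lists, and results that rest on it are given with and without it. Median fold enrichment lay between 4.59 and 4.92 in all 8 lists. Read depth is unknown, so no counting interval is given, and a region without a peak is one below the caller's threshold (the lowest −log10 q in any list was 1.002), not one without acetylation.

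For Etv5, RefSeq (build GRCm38.p6) lists 2 promoter windows, and none of these coordinates was set against the mm9 peaks. Etv4 is not among the promoter windows used here. The 250 bases before the Etv5 start at the lower coordinate, chr16:22438369-22438618 on the minus strand of GRCm38.p6, are shown because they hold the octamer TGAATGGG 3 times. Capitals mark the octamer, in either orientation.

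Etv5, 250 bases before the start: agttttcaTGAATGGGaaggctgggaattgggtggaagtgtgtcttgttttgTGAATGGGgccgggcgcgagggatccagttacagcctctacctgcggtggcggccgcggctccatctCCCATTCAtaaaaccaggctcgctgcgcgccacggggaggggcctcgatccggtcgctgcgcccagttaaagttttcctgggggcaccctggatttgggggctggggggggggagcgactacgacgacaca

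The octamers begin 242, 198 and 131 bases before that start, counted from the leftmost base of each. This octamer shares the core TGAATG with the known Capicua sites and was picked after the sequence was seen. Of 32851 RefSeq promoter windows of 300 bases, 1.08% hold TGAATGGG on either strand, and 1, this one, holds it at least 3 times. The core TGAATG is in 12.7% of windows. The known octamers TGAATGAA (1.30% of windows) and TGAATGGA (1.21%), are in neither Etv5 window, nor are the AP-1 site TGANTCA (7.81%), the cyclic AMP response element TGACGTCA (1.79%) or the longer ETS form CCGGAAG (8.86%). The ETS core GGAA, in 96.0% of windows, is in this window 6 times and not in the other Etv5 window, which holds none of these motifs. A match is a run of letters and not a shown binding site.

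**Figure D1:**
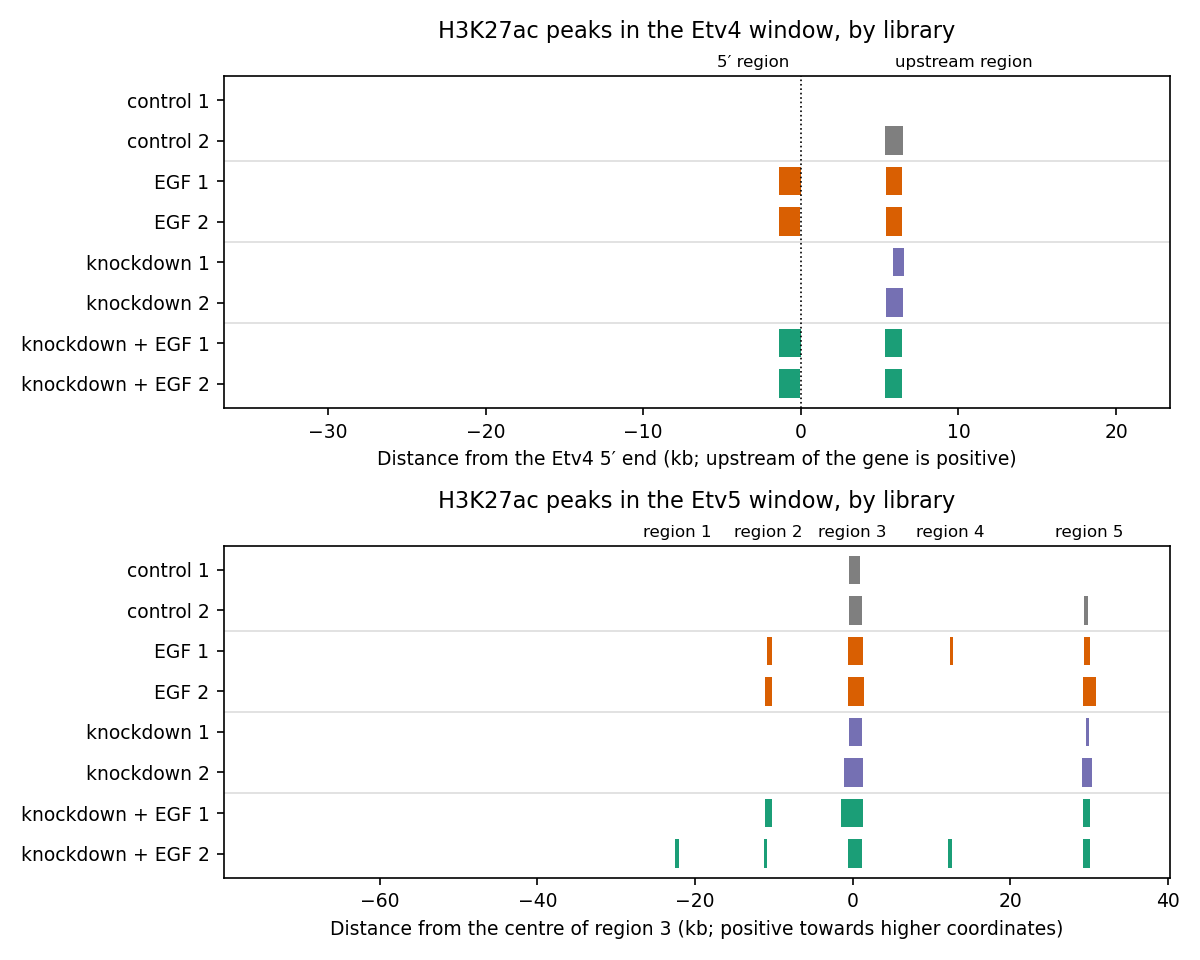
Deposited H3K27ac peaks (bars, to scale) in the Etv4 and Etv5 windows, 1 line per library, against distance in kb from the Etv4 5′ end or from the centre of Etv5 region 3. Peaks at the Etv4 5′ region and at Etv5 region 2 are in the 4 EGF-treated libraries and in none of the 4 vehicle libraries.

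At Etv4, a peak lay at the gene's 5′ end in all EGF-treated libraries and in no vehicle library. This 5′ region, chr11:101645191-101646591, ends 9 bp on the gene side of the 5′ end, which lies near position 101646600 on the minus strand of mm9. Its peak covered 1401 and 1371 bp in the EGF libraries, 1391 and 1352 bp in the knockdown libraries with EGF, and 0 bp in both control and both knockdown libraries. The EGF-treated libraries were thus all high, the vehicle libraries all at 0, and the groups did not overlap. Mean covered length was 1386 ± 21.2 bp with EGF and 1371.5 ± 27.6 bp with knockdown and EGF (SD, n = 2 each). No fold is given against groups at 0.

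The edges of this peak were nearly the same in the 4 separately called lists. Its start varied by 13 bp and its end by 36 bp, and each shorter peak lay wholly within each longer one. The deposited fold enrichment was 7.43 and 6.91 in the EGF libraries and 6.34 and 6.52 in the knockdown libraries with EGF. Both knockdown values lay under both intact ones, an order that was not tested and that 2 libraries per group cannot tell from spread. The −log10 q ranged from 6.63 to 8.68. Within its own list the peak stood at a percentile of 64.7 to 86.5 by score and of 55.9 to 59.3 by width.

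The same all-or-none pattern, a peak in all 4 EGF-treated libraries and none of the 4 vehicle libraries, was present at 2 of the 7 regions and at 137 (0.404%) of the 33920 regions of the series. Since that contrast chose the Etv4 region, nothing is read from this share. Among the 137, the Etv4 5′ region had the highest mean fold enrichment over the EGF-treated libraries, 6.80 against a median of 3.93, and was 11th by mean covered length. In 3 of the 4 vehicle libraries the list that lacks this peak was longer than every EGF-treated list. The first control list, at 22167 peaks, lay within the EGF-treated range of 22030 to 23256. Whether list length or read depth bears on the missing peaks was not tested.

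The other Etv4 region lay upstream and did not separate the treatments. It spans chr11:101651929-101653165, 5329 bp upstream of the 5′ end. It was covered over 0 and 1158 bp in the control libraries, 1019 and 1070 bp with EGF, 687 and 1102 bp with knockdown, and 1116 and 1087 bp with knockdown and EGF. The first control library alone lacked a peak, the second had the widest, and EGF and vehicle libraries overlapped. Fold enrichment was low throughout, from 3.24 to 4.40, under the median of each list. The weakest of these peaks, in the first knockdown library, had a −log10 q of 1.19, close to the threshold.

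Over the whole Etv4 window, covered length was 2451.75 ± 38.0 bp in EGF-treated and 736.75 ± 534 bp in vehicle libraries (SD, n = 4 each), a difference of 1715 bp. Per library it was 0 and 1158 bp in control, 687 and 1102 bp in knockdown, 2420 and 2441 bp in EGF, and 2507 and 2439 bp in knockdown cells with EGF. Every EGF-treated library was above every vehicle library, and 1379 bp of the difference came from the 5′ region. Without the first control library the difference was 1469 bp. On the gene side, the nearest region of any list was 50.1 kb from the 5′ region. The nearest regions outside the window lay 14.9 kb and 5.0 kb beyond its edges and had a peak in all 8 libraries.

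**Figure D2:**
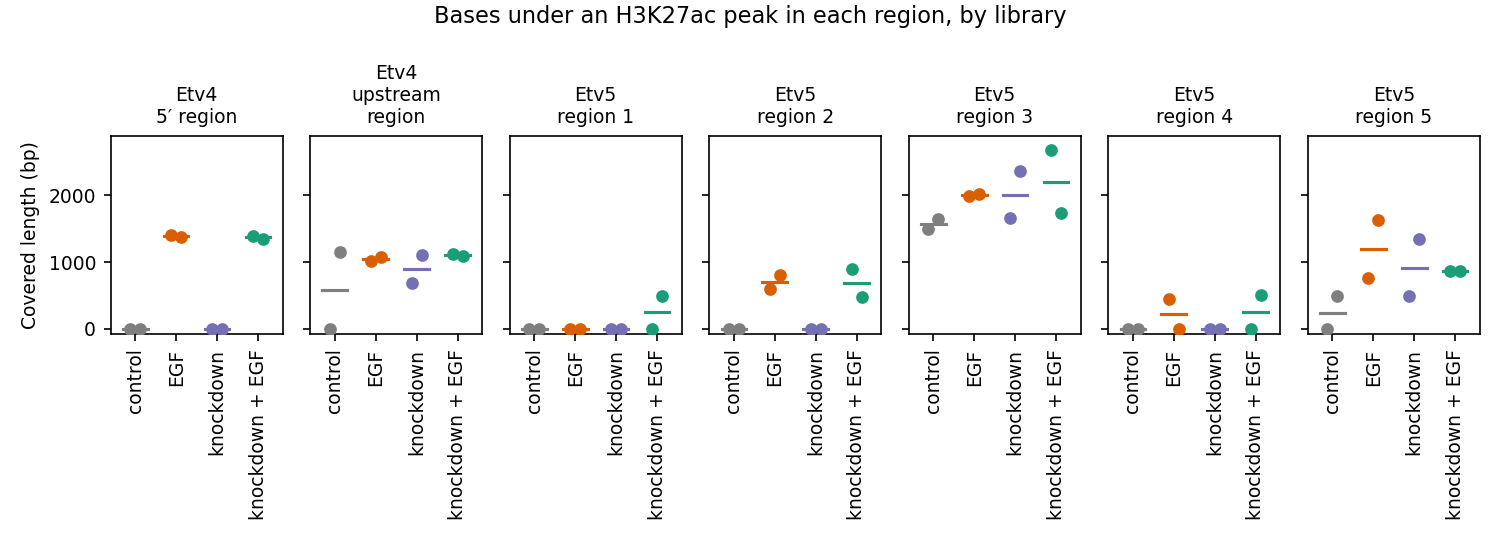
Covered length in bp (points, 1 per library; line, group mean of 2) in each of the 7 regions. At the Etv4 5′ region the EGF-treated libraries lie between 1352 and 1401 bp and vehicle libraries at 0, while Etv5 region 3 is covered in all 8 libraries, from 1495 to 2678 bp.

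Unlike the Etv4 window, the Etv5 window, which is the wider, held a region with a peak in every library. The labels give no gene positions in mm9, so which region holds the start of Etv5 was not determined, and the regions are numbered by rising coordinate. In RefSeq, Etv5 lies on the minus strand between Tra2b and Dgkg, and Etv4 between Dhx8 and Meox1.

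Etv5 region 3, chr16:22438355-22441169, was the widest. It was covered over 1495 and 1647 bp in control, 1993 and 2023 bp with EGF, 1659 and 2365 bp with knockdown, and 2678 and 1732 bp with knockdown and EGF. Both control libraries were the lowest of the 8, and EGF-treated and vehicle libraries overlapped through the knockdown pair. Means were 1571 ± 107 bp in control and 2008 ± 21.2 bp with EGF (SD, n = 2 each), and 2012 ± 499 bp and 2205 ± 669 bp in the knockdown groups (SD, n = 2 each).

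The fold enrichment of region 3 was also lowest in control cells. It was 4.14 and 4.77 in control, 5.81 and 6.69 with EGF, 6.47 and 5.59 with knockdown, and 6.79 and 7.67 with knockdown and EGF. Control libraries stood below the other groups, and both values with knockdown and EGF stood above both with EGF alone. Relative to the median of its own list, the peak was 0.903-fold and 1.03-fold in control and 1.365-fold and 1.192-fold with knockdown. It was 1.259-fold and 1.398-fold with EGF and 1.378-fold and 1.642-fold with knockdown and EGF. On this scale the EGF groups with and without knockdown overlapped, while control stayed lowest. Fold enrichments are the caller's own per library and were not tested between groups.

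Etv5 region 2, chr16:22428482-22429568, had the all-or-none EGF pattern of the Etv4 5′ region, in a weaker and less even form. It lies 8.8 kb below region 3, on the side towards which the minus strand is transcribed. Its peak covered 593 and 807 bp with EGF, 890 and 479 bp with knockdown and EGF, and 0 bp in all 4 vehicle libraries. The EGF-treated libraries were all above the vehicle libraries, with a mean of 692.25 ± 189 bp (SD, n = 4). Fold enrichment was 3.57 and 4.16 with EGF and 3.69 and 4.13 with knockdown and EGF, under each list's median.

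Unlike at Etv4, the edges of region 2 moved widely. Starts spread over 424 bp and ends over 608 bp. The peaks of the first EGF library and the second knockdown library with EGF shared 55 bp, 11.5% of the shorter one. The −log10 q was 1.58 to 2.80, and the within-list score percentile 8.94 to 33.8. Among the 137 regions with this pattern, region 2 was 74th by mean fold enrichment and 77th by mean covered length, against 1st and 11th for the Etv4 5′ region.

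Etv5 region 5, chr16:22468862-22470648, lies 27.7 kb above region 3 in the direction of Dgkg and had a peak in 7 libraries. It was covered over 0 and 484 bp in control, 767 and 1634 bp with EGF, 491 and 1343 bp with knockdown, and 860 and 866 bp with knockdown and EGF. The first control library alone lacked it, and EGF-treated and vehicle libraries overlapped. Its fold enrichment was even, from 3.75 to 4.28, and highest in the second control library.

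The last pair of Etv5 regions was seen in EGF-treated libraries only and close to the caller's threshold. Region 4, chr16:22451872-22452548, had a peak of 445 bp in the first EGF library and 505 bp in the second knockdown library with EGF, at a −log10 q of 1.73 and 1.82. Region 1, chr16:22417210-22417704, had a single peak of 495 bp in the second knockdown library with EGF, at a −log10 q of 1.15. The duplicates of these libraries lacked the peaks. Neither region was thus shared by the libraries of a group.

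Over the whole Etv5 window, covered length was 4191.75 ± 315 bp in EGF-treated and 2371 ± 942 bp in vehicle libraries (SD, n = 4 each), a difference of 1821 bp. Per library it was 1495 and 2131 bp in control, 2150 and 3708 bp in knockdown, 3798 and 4464 bp in EGF, and 4428 and 4077 bp in knockdown cells with EGF. Every EGF-treated library was above every vehicle library, though the second knockdown library came within 90 bp of the lowest EGF-treated one. EGF-treated libraries held 3 to 5 peaks and vehicle libraries 1 or 2. Without the first control library the difference was 1529 bp. With only peaks at or above the median score of all lists, which keeps region 3 in 7 libraries (not in the first control library) and drops the other regions, it was 689 bp. That cut removes the 1495 bp of the first control library, so the value rests in part on that library and was not recalculated without it. With all peaks kept, the region 3 means were 2106.5 bp in EGF-treated and 1791.5 bp in vehicle libraries. The nearest regions outside the window lay 1.1 kb below it, with a peak in 1 library, and 19.8 kb above it, in 4.

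**Figure D3:**
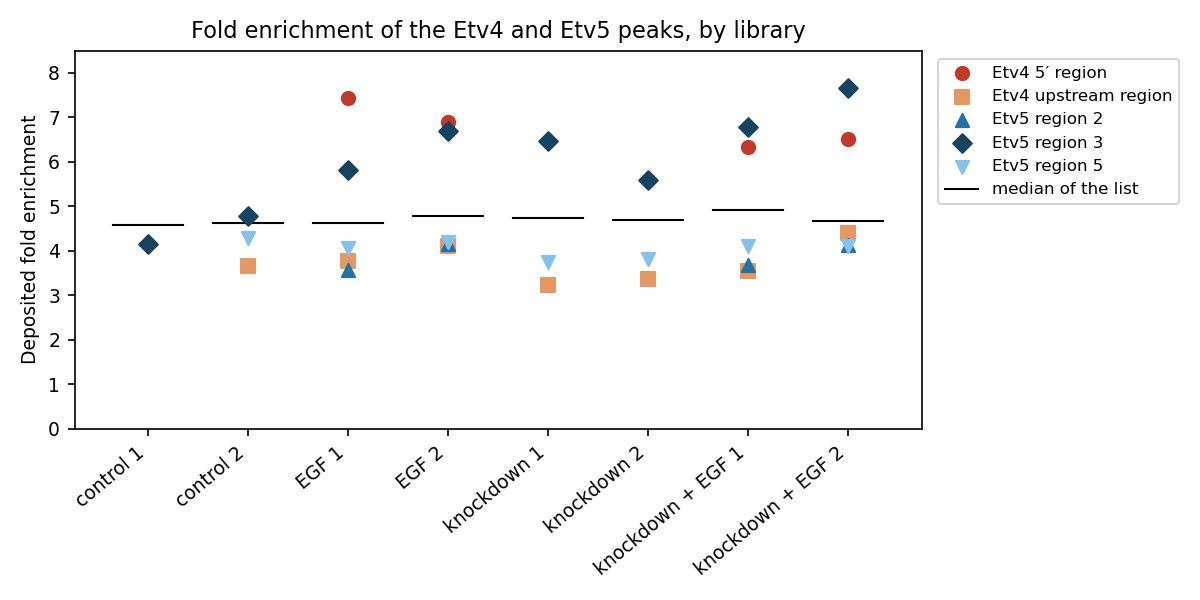
Deposited fold enrichment (y axis, linear from 0) of the peaks in 5 regions, by library; black lines mark the median of each list. The Etv4 5′ region and Etv5 region 3 lie above the list medians of 4.59 to 4.92 in every EGF-treated library, while the other regions stay under them.

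The knockdown comparison asks whether Arid1a siRNA went with a change in peak cover at these genes, with and without EGF. No region passed the test among the 5 in the fit, which are the upstream Etv4 region and Etv5 regions 2 to 5; the Etv4 5′ region was left out of the count and Etv5 region 1 had a peak in too few libraries. The test was limma on log2(covered bp + 200) over the 28146 regions that had a peak in 2 or more libraries, with Benjamini-Hochberg adjustment. Without EGF, Etv5 regions 2 and 4 had no peak in any vehicle library and could not be called. Limma called 0 of the other 3 (0 at an unadjusted p under 0.05), against 1.37% of all regions. With EGF limma called 0 of 5 (0 unadjusted), against 0.661%.

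In EGF-treated cells the difference with knockdown, on the log2(covered bp + 200) scale, was 0.09 at Etv5 region 3 (95% interval -0.47 to 0.66, limma adjusted p = 1) and -0.05 at Etv5 region 2 (95% interval -0.97 to 0.86, limma adjusted p = 1). It was 0.06 ± 0.83 (SE) at the upstream Etv4 region, 0.06 ± 0.76 (SE) at Etv5 region 4 and -0.33 ± 0.70 (SE) at Etv5 region 5, each at a limma adjusted p of 1. The SE at the upstream Etv4 region takes in the spread of the control pair, and was 0.22 without the first control library. The median difference over all regions tested was 0. At Etv5 regions 2 and 4 the shared spread takes in vehicle pairs without any peak, so the interval and SE there can be too narrow. The intervals do not show that the groups are alike.

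Without EGF the differences were 0.30 at Etv5 region 3 (limma adjusted p = 0.626), 1.48 at Etv5 region 5 (limma adjusted p = 0.461) and 1.04 at the upstream Etv4 region (limma adjusted p = 0.642), with a median of 0.18 over all regions. At Etv5 region 5 the second library of each group was covered further than the first. With the library number as a block in the fit, the SE there was 0.46 instead of 0.70. The limma p was then 0.023 unadjusted and 0.272 adjusted. At Etv5 region 3 leaving out a control library gave 0.24 (the first) or 0.37 (the second), and leaving out a knockdown library gave 0.54 (the first) or 0.07 (the second). At Etv5 region 5 it was 0.59 ± 0.62 (SE, limma adjusted p = 0.837) without the first control library and 2.37 ± 0.63 (SE, limma adjusted p = 0.0894) without the second. At the upstream Etv4 region it was 2.43 without the second control library, where the median over all regions was 0.34. Without the first it was -0.34, where the median was 0.01, so the rise rests on the first control library, which has no peak there. With lists cut to equal length the sign turned, to -1.38 ± 0.84 (SE, limma adjusted p = 0.545).

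Whether EGF went with a different change in knockdown than in intact cells was tested as the difference of the EGF effects. Limma called 0 of the 5 regions (0 unadjusted) and 0% of all regions (2525 of 28146 at an unadjusted p under 0.05). At Etv5 regions 2 and 4, with no peak in any vehicle library, the value is the knockdown difference with EGF again (-0.05 and 0.06). Those regions thus give no separate test of the EGF effects. The largest difference among the 5 was at Etv5 region 5, at -1.81 (95% interval -4.23 to 0.61, limma adjusted p = 0.729). Without the first control library it was -0.92 ± 0.80 (SE, limma adjusted p = 0.818), and without the second -2.69 ± 0.81 (SE, limma adjusted p = 0.158). At the upstream Etv4 region it was -2.36 without the second control library, where the median over all regions was -0.32. Without the first it was 0.40, where the median was 0.01. With lists cut to equal length its sign turned as well, from -0.98 to 1.45 (limma adjusted p = 0.799).

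Window totals were also set side by side for knockdown and intact libraries. At Etv4 the means were 1683.75 ± 927 bp with knockdown and 1504.75 ± 1169 bp intact (SD, n = 4 each). These totals include the 5′ region, whose values were used in the choice of the gene, so they are given with no test. The sign of the difference depended on the libraries kept, from -323 bp without the first control library to 511 bp without the first knockdown library. At Etv5 the means were 3590.75 ± 1004 bp with knockdown and 2972 ± 1390 bp intact (SD, n = 4 each; exact two-sided permutation over all 70 assignments, p = 0.543, smallest possible 0.0286). The EGF difference stays in this spread, and within each EGF state the exact permutation p was 0.278 (36 assignments, smallest possible 0.0556). The Etv5 difference of 619 bp fell to 126 bp without the first control library.

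Regions elsewhere in the genome with a cover pattern most like these were named by the smallest distance over the 8 libraries on the log2(covered bp + 200) scale. For the Etv4 5′ region they were chr5:53177324-53178812, at a distance of 0.084, chr2:25880736-25882751, at 0.256, and chr6:7086298-7087838, at 0.264. All 3 had 0 bp in every vehicle library and 1221 to 1622 bp in EGF-treated ones. For Etv5 region 3 the closest were chr1:167778949-167781614, at 0.345, chr1:182833655-182836101, at 0.421, and chr19:27503802-27505985, at 0.462, each covered in all 8 libraries. A gene annotation of mm9 was not used here, so these regions carry no gene names, and the other genes of the pathway were not analysed.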

How the data were processed

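Peak lists of 8 H3K27ac ChIP-seq libraries were used, 1 per library, so peaks were not called on pooled samples. The submitters' processing notes name build mm9, the peak caller MACS2 (2.1.1.20160309.0), deepTools (3.0.2), Bowtie2 (2.3.4.2) and SAMtools. Caller settings and input libraries are not stated in these sources. Fold enrichment, a ratio that the authors deposited per peak relative to a background, was only described. For 99.99% of peaks the deposited score equals 10 times the −log10 q, cut to a whole number, and the authors' −log10 p stands beside it. Read depth is unknown, and longer lists can come from deeper libraries.

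Peaks were merged at an overlap of 1 bp or more. Covered bp per region and library was analysed with limma 3.58.1 (moderated by empirical Bayes, trend on; R 4.3.3) as log2(covered bp + 200), with 1 mean per group, a shared spread, a peak in at least 2 libraries and a threshold of 0.05. This scale understates changes of short peaks. Etv5 window totals used exact permutation, and the same test planned at Etv4 is not given because its total holds the 5′ region. Other steps ran in Python 3.11.15 (SciPy 1.17.1, NumPy 2.4.6, pandas 2.3.3, matplotlib 3.10.9). Interval steps and limma were tested on simulated data.

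The windows, tests and motifs were chosen with earlier results of these data known, and TGAATGGG and TGAATG after the sequence was seen. Values per library are given for the Etv4 5′ region, the regions with a peak in 2 to 7 libraries and the widest of each window, and likeness for the 3 nearest regions. Region 1 is given as well, to account for every region.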

Additional observations from a re-analysis of the deposited data

How the results depend on the processing

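Of 112 recalculated values, 103 kept their direction and their side of the threshold or moved by less than the replicate spread. Among them is every value for the Etv4 5′ region (EGF minus vehicle 1371 to 1388 bp when single libraries were left out). Its vehicle libraries are all at 0 bp through the choice of the gene, so this stability is no support for the pattern. Window totals from whole peaks, or only from peaks wholly inside, equalled the main ones and add no separate check. With peaks at or above the pooled median score, the EGF difference at Etv5 fell to 689 bp (688.75) and knockdown minus intact at Etv4 turned to -7.25 bp. Lists of equal length gave 2162 bp (2162.25) for EGF at Etv4 and -268 bp (-268.25) for knockdown at Etv4, since 2 of 3 vehicle peaks then drop out. Leaving out single libraries gave 1469 to 1855 bp and 1529 to 2266 bp for EGF at Etv4 and Etv5, and -323 to 511 bp and 126 to 1116 bp for knockdown; at Etv4 the sign turned when control library 1 was left out (-323), or either EGF-treated knockdown library (-95.4 and -72.75). Limma calls at the 5 regions were 0 to 1 without single libraries, for knockdown without EGF and for the difference of EGF effects, and 0 for knockdown with EGF; each single call was the upstream Etv4 region without the second control library. Pseudocounts of 50 and 1000 bp, other filters, merging within 500 bp, lists of equal length, the stricter score and quantile normalization called 0 of them. For knockdown without EGF, calls over all regions were 0 with no filter, the filter of 4 libraries or quantile normalization. With EGF they were 0 with the pseudocount of 1000 bp. There, and in most fits leaving out 1 library, no region passed, so 0 calls say nothing particular about these regions. Over all alternatives the smallest limma adjusted p among these regions ran from 0.0185 to 0.833 for knockdown without EGF and from 0.0493 to 0.939 for the difference of EGF effects. Fewer than 5 regions were tested with the stricter score (1), the filter of 4 libraries (4), and without EGF library 1 or the second EGF-treated knockdown library (4 each). Over all regions, limma calls for knockdown without EGF numbered 385, and 0 to 2956 under the alternatives (most without control library 2). With EGF they numbered 186, and 0 to 630, and for the difference of EGF effects 0, but 804 with the stricter score and 1134 without control library 2. A replicate block gave 0 calls at these regions and over all regions in each comparison. Deviations of same-numbered libraries correlated at -0.009 to 0.032, a value for all regions only. Unknown read depth limits every missing peak to a statement about the threshold.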
